A study of Mus musculus with 12 samples.

Results

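Transcripts of 10 genes of the BCL2 family were followed in FL5.12 cells, chosen by name from the 21671 genes of the expression table. They fall into 3 classes: the antiapoptotic genes Bcl2, Bcl2l1 (which encodes Bcl-xL) and Mcl1, the effectors Bax and Bak1, and the BH3-only genes Bcl2l11 (Bim), Bbc3 (PUMA), Bid, Bad and Bmf. FL5.12 is an interleukin 3-dependent lymphoid precursor line from BALB/c mice, labelled prolymphocytic, and all 12 libraries came from derivatives expressing MycER, a fusion of MYC with a hormone-binding domain that 4-hydroxytamoxifen (OHT) switches on. The chimera was driven constitutively by a retroviral vector in drug-selected pools, not single clones. Each of 4 conditions had 3 libraries: no drug (untreated), 100 nM OHT throughout a 72 h culture (OHT), 135 nM IACS-010759 over 24 h (IACS), and a 48 h OHT priming followed by 24 h of both drugs at these doses (OHT+IACS). IACS-010759 inhibits complex I of the respiratory chain. No condition lacked MycER, so effects of OHT itself and of MycER activation cannot be told apart here.

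BCL2 family proteins set the threshold of the intrinsic apoptotic pathway at the mitochondrial outer membrane. The effectors Bax and Bak form pores that let cytochrome c into the cytosol, the antiapoptotic proteins hold effectors and BH3-only proteins in complexes, and the BH3-only proteins relay stress signals by occupying the antiapoptotic proteins or by engaging the effectors. MYC is known to lower this threshold in lymphoid cells, and PUMA, Bim and the transcription factor CHOP are textbook links between the integrated stress response and the family.

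The libraries held between 10376530 and 14550158 reads as worked out from the deposited values, of which 4199265 to 5762338 lay on the listed genes. Values are given as RPKM, reads scaled to transcript length and to the library total. The length is thus divided out, but comparisons between genes keep a limit from coverage (reads per base). The median slope of reads on the library total, both on the log2 scale, fell from 1.39 in the most thinly covered genes to 0.184 in the best covered. The part of coverage in differences of level between genes was not tested. The lineage markers were only partly those of a B-cell progenitor: Pax5, Rag1 and Il7r had no read in any of the 12 libraries, Ebf1 and Igll1 had at most 1, while Ptprc (CD45) lay between 15.05 and 19.33 RPKM and Csf2rb, the common receptor chain for interleukin 3, between 39.84 and 48.46 RPKM. Mpo and Gata1, markers of other blood lineages, reached 13.65 and 32.93 RPKM. The summed level of the 5 myeloid markers, of which 2 were high enough to test, was 10.2 to 12.5 RPKM in OHT libraries and 14.9 to 16.3 RPKM in untreated ones. The 10 B-cell progenitor markers (3 tested) summed to 18.3 to 19.9 RPKM with OHT against 21.3 to 21.4 RPKM untreated, and the 4 T-cell markers (1 tested) to 0.9105 to 1.09 against 1.78 to 2.15 RPKM. The 2 erythroid markers lay the other way, at 33.1 to 34.6 RPKM with OHT and 27.7 to 28.55 RPKM untreated. In each of these 4 lists the OHT and untreated ranges did not overlap. Most of each sum came from 1 gene: Mpo, Ptprc, Cd3g and Gata1. The 3 receptor genes for interleukin 3 did overlap, at 69.5 to 74.75 RPKM with OHT and 69.7 to 72.6 RPKM untreated. Of all genes tested, 18.2% rose and 18.2% fell with OHT. The part of such marker differences in the values below was not tested.

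Promoter sequence is shown for Bcl2, the member that changed in the most comparisons, and for Bax and Bbc3, the genes with an E-box, CACGTG, the motif that MYC binds. The 10 genes had 18 RefSeq promoter windows (GRCm38.p6), each from 250 bases before to 50 bases after a transcription start. The E-box occurred in 2 of these windows, against 7.15% of all 32851 windows searched the same way on both strands. The Bax window held 2 of them, starting at position -9 and at position +36 from the start, and 0.594% of all windows held 2 or more. The other was in the window of the third start of Bbc3, at position -64. The Bcl2 window held none. The core of the C/EBP-ATF response element, TGATGNAA, which ATF4 and CHOP complexes bind, was in none of the 18 windows and in 3.97% of all windows. The stretches below run 5′ to 3′ on the gene's strand with E-boxes in capitals: the 250 bases before the start of Bcl2 and of Bax, and 30 bases around the second E-box of Bax and around that of Bbc3.
Bcl2 (minus strand, chr1:106714291-106714540): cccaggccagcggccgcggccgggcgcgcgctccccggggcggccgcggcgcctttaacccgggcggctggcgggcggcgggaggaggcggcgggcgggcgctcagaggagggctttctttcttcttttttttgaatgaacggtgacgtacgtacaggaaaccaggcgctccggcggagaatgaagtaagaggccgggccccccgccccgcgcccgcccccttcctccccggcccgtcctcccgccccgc
Bax (minus strand, chr7:45466899-45467148): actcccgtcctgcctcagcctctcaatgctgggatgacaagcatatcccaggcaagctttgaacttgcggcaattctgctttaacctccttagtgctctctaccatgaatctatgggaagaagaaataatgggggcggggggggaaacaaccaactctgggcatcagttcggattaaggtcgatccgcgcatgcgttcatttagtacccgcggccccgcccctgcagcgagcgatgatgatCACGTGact
Bax, after the start (minus strand, chr7:45466849-45466878): atgttgcggggcaccCACGTGagggccgca
Bbc3 (plus strand, chr7:16310355-16310384): gcggggcgggcgCACGTGgcggcgtcgagg

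Of the 10 genes, 9 passed the filter on low values (1 RPKM or more in 3 or more libraries) and were tested. Bmf, whose product is tethered to the cytoskeleton until stress frees it, was read 1 to 4 times per library (0.0143 to 0.0594 RPKM). This is at or near the floor of 3 reads used here, so no fold change is given for it. The expressed genes differed widely in level. Mcl1 and Bak1 were the most abundant, with means over the 12 libraries of 37.5 and 35.3 RPKM, followed by Bax at 32.0, Bid at 26.0, Bcl2 at 21.6, Bcl2l1 at 16.65 and Bad at 12.9 RPKM. Bbc3 averaged 6.26 and Bcl2l11 1.14 RPKM. In reads, the 9 genes ranged from 84 reads in the poorest library for Bcl2l11 to 3063 in the richest for Bcl2. Bcl2l11 and Bbc3 (95 reads at the least) thus rested on the fewest reads. The SE of the log2 change with OHT was largest for Bcl2l11 (0.141), followed by Bad (0.123) and Bbc3 (0.105). RPKM is a share of the library: more transcript per cell and more cells with the transcript cannot be told apart, and protein was not measured in these files.

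**Figure D1:**
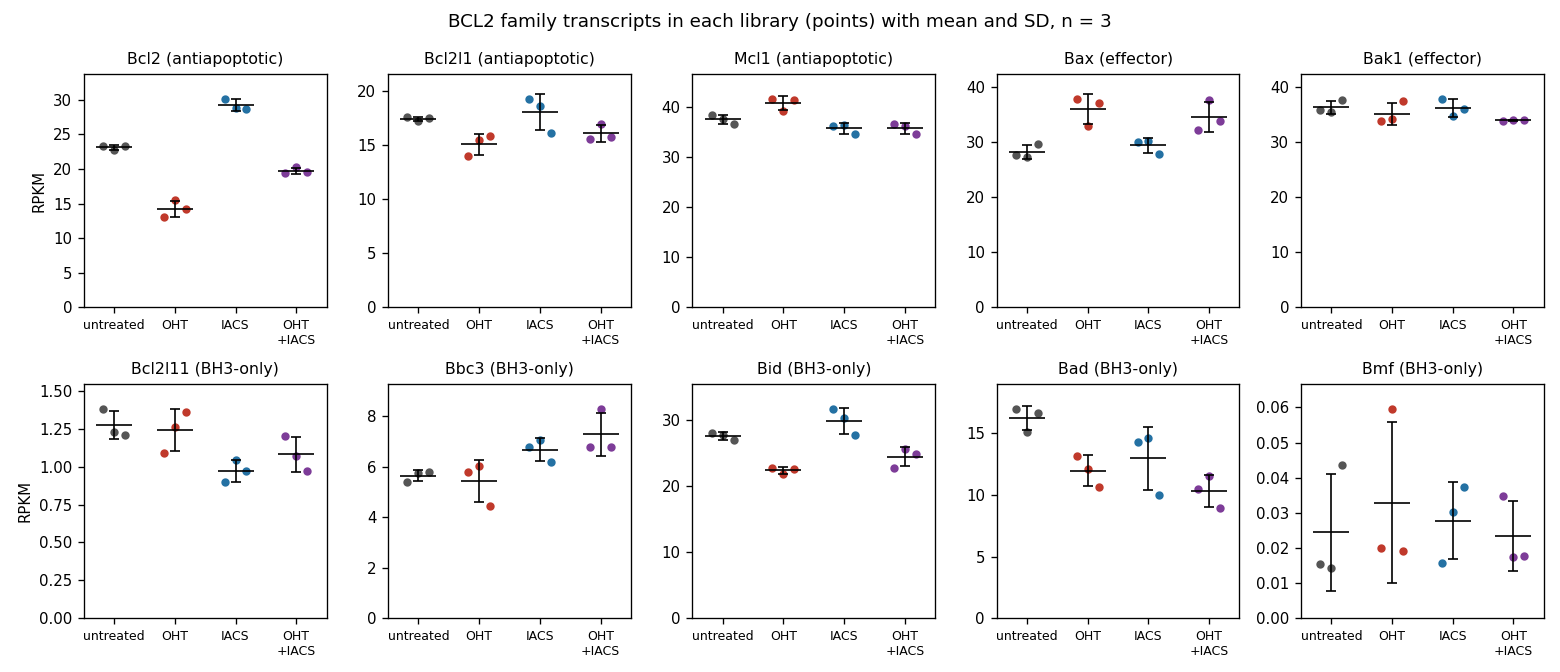
Level of each of the 10 genes in RPKM (vertical axes start at 0 and differ between panels) in the 3 libraries of each condition (points), with the mean (horizontal bar) and SD (whiskers). The 4 conditions are fully separated for Bcl2, from 13.1 to 15.5 RPKM with OHT up to 28.6 to 30.2 RPKM with IACS, whereas Bak1 stays between 33.7 and 37.8 RPKM throughout.

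Among the antiapoptotic genes, Bcl2 was the one that changed most. Its level was 23.3, 22.7 and 23.4 RPKM in the untreated libraries, 13.1, 15.5 and 14.2 RPKM with OHT, 30.2, 28.8 and 28.6 RPKM with IACS and 19.4, 20.2 and 19.5 RPKM with OHT+IACS. No 2 conditions overlapped, and the order was IACS, untreated, OHT+IACS and OHT from highest to lowest. On the log2 scale, after scaling the libraries and with limma's moderated test adjusted by Benjamini-Hochberg over all 9745 genes tested, Bcl2 fell by 0.72 with OHT (SE 0.047, adjusted p = 1.6e-07), to 0.607 of the untreated level. IACS-010759 raised it by 0.31 in nonprimed cells (SE 0.047, adjusted p = 0.00079). After priming with OHT the rise was 0.47 (adjusted p = 2.2e-05). OHT-primed cells under IACS-010759 nonetheless had less Bcl2 than nonprimed cells under IACS-010759, by -0.56 (adjusted p = 2.4e-06), and less than untreated cells, by -0.25 (adjusted p = 0.00097). The difference between the responses of primed and nonprimed cells to IACS-010759 was 0.16 with a 95% interval of 0.02 to 0.31 and did not pass the test (adjusted p = 0.34).

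Bcl2l1 moved less. It stood at 17.6, 17.2 and 17.5 RPKM in untreated cells, 14.0, 15.5 and 15.8 RPKM with OHT, 19.3, 18.6 and 16.2 RPKM with IACS and 15.5, 16.9 and 15.7 RPKM with OHT+IACS. The 3 OHT libraries lay below the 3 untreated ones, whereas those with IACS spread to both sides of untreated, the third IACS library being the low one. Bcl2l1 fell by 0.23 with OHT (SE 0.053, adjusted p = 0.0042), a call that ended when the library total entered the fit as a covariate (adjusted p = 0.073, range over 23 alternatives 0.0012 to 0.073). With IACS alone the change was 0.02 (95% interval -0.10 to 0.13). OHT+IACS differed from untreated by -0.14 without overlap and just missed the threshold (95% interval -0.25 to -0.02, limma, adjusted p = 0.052). It passed in 8 of 23 alternatives (range 0.022 to 0.3). Between OHT+IACS and IACS the difference was -0.16 (adjusted p = 0.043), with overlapping libraries. That call held in 10 of 23 alternatives. Leaving out IACS replicate 1 gave an adjusted p of 0.18, IACS replicate 2 or OHT+IACS replicate 1 gave 0.13, OHT+IACS replicate 3 gave 0.11 and the untreated replicates gave 0.055 to 0.059 (range over alternatives 0.0074 to 0.18).

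Mcl1, which encodes a short-lived antiapoptotic protein, was the most abundant of its class. Untreated cells had 38.5, 37.6 and 36.7 RPKM, OHT cells 41.7, 39.2 and 41.5 RPKM, IACS cells 36.3, 36.6 and 34.6 RPKM and OHT+IACS cells 36.7, 36.2 and 34.6 RPKM. The OHT libraries were the highest in deposited RPKM but overlapped the untreated ones after scaling. The IACS and OHT+IACS libraries lay below the untreated ones after scaling. The differences from untreated were 0.10 with OHT (adjusted p = 0.15) and -0.10 with IACS (adjusted p = 0.21), neither of which passed. In OHT-primed cells Mcl1 fell by 0.19 under IACS-010759 (SE 0.050, adjusted p = 0.018). The call was lost without OHT replicate 1 (adjusted p = 0.055), without OHT+IACS replicate 2 (0.054) or 3 (0.071), and when only the compared groups were fitted (0.091), the range over alternatives being 0.0039 to 0.091. Between OHT+IACS and IACS the values differed by 0.01 (95% interval -0.10 to 0.12).

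Bax rose with OHT. It was measured at 27.6, 27.2 and 29.7 RPKM in untreated cells, 37.9, 32.9 and 37.1 RPKM with OHT, 30.0, 30.2 and 27.8 RPKM with IACS and 32.1, 37.6 and 33.9 RPKM with OHT+IACS. All 6 libraries with OHT lay above all 6 without it. The rise was 0.33 on the log2 scale in the absence of IACS-010759 (SE 0.068, adjusted p = 0.0024) and 0.24 in its presence (adjusted p = 0.021). The second value lost its call without IACS replicate 1 (adjusted p = 0.053) or 3 (0.057) and without OHT+IACS replicate 2 (0.09) or 3 (0.052), in a range over alternatives of 0.0032 to 0.09. OHT+IACS cells exceeded untreated cells by 0.27 (adjusted p = 0.0072, and 0.066 with the library total as a covariate, the highest value over the alternatives, which began at 0.0011). IACS-010759 changed Bax by 0.03 in nonprimed cells (95% interval -0.12 to 0.18) and by -0.06 in primed cells (-0.20 to 0.09). Its promoter window held 2 E-boxes. Bbc3, which also has an E-box, differed by -0.09 with OHT (limma, adjusted p = 0.53), and the window of Bcl2 held none. Binding of MYC was not tested.

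Bak1, the other effector, passed the test in none of the 6 comparisons. Its values were 35.8, 35.4 and 37.5 RPKM in untreated cells, 33.7, 34.2 and 37.4 RPKM with OHT, 37.8, 34.7 and 36.0 RPKM with IACS and 33.8, 33.9 and 33.9 RPKM with OHT+IACS. The largest difference was -0.12 between OHT+IACS and untreated libraries (95% interval -0.23 to -0.01, adjusted p = 0.078), which did not overlap. That difference passed in 4 of 23 alternatives, among them the fit without OHT replicate 2 (adjusted p = 0.049; range over alternatives 0.014 to 0.21). The level of Bax relative to Bak1 was 0.777 ± 0.0120 (SD, n = 3) in untreated, 1.03 ± 0.0859 in OHT, 0.813 ± 0.0527 in IACS and 1.02 ± 0.0805 in OHT+IACS libraries.

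The BH3-only genes differed in their changes. With OHT all 4 tested genes had negative estimates, of which Bid and Bad passed (18.2% of all genes fell) and those of Bcl2l11 and Bbc3 were small. With IACS alone 2 of the 4 were higher and none passed. Bid, whose product is cleaved by caspase-8 and links death receptors to mitochondria, fell with OHT, from 28.02, 27.7 and 27.0 RPKM in untreated cells to 22.7, 21.8 and 22.6 RPKM. It was 31.6, 30.3 and 27.7 RPKM with IACS and 22.8, 25.6 and 24.8 RPKM with OHT+IACS. As for Bax, but in the opposite direction, all 6 OHT libraries were separated from all 6 libraries without OHT. The fall was 0.32 without IACS-010759 (SE 0.053, adjusted p = 0.0004) and 0.28 with it (adjusted p = 0.0015). OHT+IACS cells remained 0.20 below untreated cells (log2 difference -0.20, adjusted p = 0.0094), and the change with IACS alone was 0.09 (95% interval -0.03 to 0.20). These 3 calls held under all 23 alternatives.

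Bad, which binds Bcl-2 and Bcl-xL and is held inactive by phosphorylation downstream of survival factors such as interleukin 3, had its highest values without drug. Untreated cells had 16.9, 15.1 and 16.6 RPKM. OHT gave 13.2, 12.1 and 10.7 RPKM, IACS 14.3, 14.6 and 10.01 RPKM and OHT+IACS 10.4, 11.6 and 8.94 RPKM. All 9 treated libraries lay below the 3 untreated ones, and the third IACS library was as low as those with OHT. Bad fell by 0.46 with OHT (SE 0.12, adjusted p = 0.011) and by 0.67 with OHT+IACS against untreated (adjusted p = 0.00081). The former was lost without OHT replicate 3 (adjusted p = 0.053) and with the library total as a covariate (0.14, in a range of 0.0014 to 0.14), the latter in no alternative. With IACS alone the difference was -0.37 and missed the threshold (adjusted p = 0.059). It passed in 6 of 23 alternatives, including those without OHT replicate 1 (adjusted p = 0.044) or IACS replicate 2 (0.041), in a range of 0.02 to 0.22. OHT+IACS differed from IACS by -0.31 (adjusted p = 0.083), and by -0.46 once IACS replicate 3 was left out (adjusted p = 0.0067, range 0.0067 to 0.28).

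Bbc3, which encodes PUMA, a BH3-only protein that binds all antiapoptotic members, was highest in OHT+IACS cells. The libraries gave 5.41, 5.77 and 5.78 RPKM untreated, 5.80, 6.02 and 4.46 RPKM with OHT, 6.77, 7.08 and 6.18 RPKM with IACS and 6.80, 8.27 and 6.78 RPKM with OHT+IACS. All 6 libraries with IACS-010759 lay above all 6 without it. The rise passed the test in primed cells, with 0.42 (SE 0.11, adjusted p = 0.012), and not in nonprimed cells, with 0.21 (95% interval -0.02 to 0.43, adjusted p = 0.21). The call in primed cells differs from the study, which tested counts and reported no significant rise of PUMA mRNA under IACS-010759. The difference between the responses of primed and nonprimed cells was 0.22 (95% interval -0.10 to 0.54, adjusted p = 0.57). Against untreated cells OHT+IACS was higher by 0.33 (adjusted p = 0.023). OHT+IACS replicate 2 was the highest library, and without it the adjusted p values were 0.051 (range over alternatives 0.0071 to 0.051) and 0.099 (range 0.0033 to 0.099), while the second was 0.074 without untreated replicate 1.

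Bcl2l11, the gene of the BH3-only protein Bim, was at 1.38, 1.23 and 1.21 RPKM in untreated cells, 1.09, 1.27 and 1.36 RPKM with OHT, 0.897, 1.04 and 0.972 RPKM with IACS and 1.20, 1.07 and 0.973 RPKM with OHT+IACS. After scaling, the IACS and OHT+IACS libraries lay below the untreated ones, while OHT libraries overlapped them. No comparison passed. The largest difference, -0.38 between IACS and untreated, had a 95% interval of -0.69 to -0.08 and an adjusted p of 0.082, and passed without the mean-variance trend (0.017) and with voom on reads (0.012, range 0.012 to 0.24). With OHT the difference was -0.06 (95% interval -0.36 to 0.25).

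**Figure D2:**
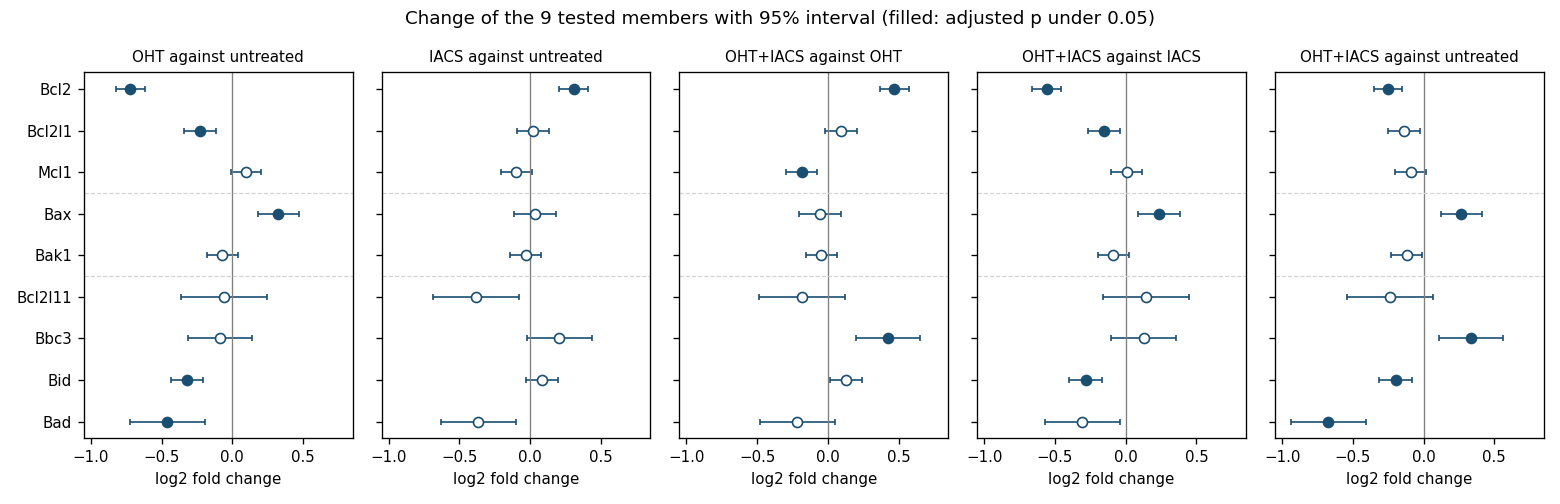
Log2 fold change (horizontal axis) of the 9 tested genes in 5 comparisons, with 95% intervals. Filled points passed an adjusted p of 0.05, and dashed lines part the antiapoptotic, effector and BH3-only classes. Bcl2 is filled in every panel and moves left with OHT (-0.72) and right with IACS-010759 (0.31 and 0.47), and Bax is to the right in the 3 panels that set cells with OHT against cells without it.

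Counted over the 9 tested genes, OHT against untreated changed 5: Bax rose, where 18.2% of all 9745 genes rose, and Bcl2, Bcl2l1, Bid and Bad fell, where 18.2% fell. IACS against untreated raised Bcl2 (8.15% of all genes rose) and lowered none (7.74% fell). In OHT-primed cells IACS-010759 raised Bcl2 and Bbc3 (11.9% of all genes) and lowered Mcl1 (11.8%). OHT+IACS against IACS raised Bax (12.3%) and lowered Bcl2, Bcl2l1 and Bid (14.2%). OHT+IACS against untreated raised Bax and Bbc3 (18.5%) and lowered Bcl2, Bid and Bad (20.9%). In the interaction, the test of whether IACS-010759 acted differently after OHT priming, none of the 9 genes passed with limma, nor with voom or any other alternative, where 0.144% of all genes passed upward and 0% downward. Bcl2 alone had an unadjusted p under 0.05 there (0.03). The median log2 change of the 9 genes was -0.09 with OHT, 0.02 with IACS, -0.05 for OHT+IACS against OHT, -0.09 against IACS and -0.14 against untreated. Over all genes tested these medians were 0.01, 0.00, -0.01, -0.00 and 0.00. The comparisons share libraries, so their counts are not independent of one another.

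The balance of the classes was taken as the sum of RPKM over the members of each class in each library, a description of transcripts with no test. The antiapoptotic sum was 78.1 ± 1.10 RPKM (SD, n = 3) in untreated cells, 70.1 ± 1.33 with OHT, 83.0 ± 3.29 with IACS and 71.6 ± 1.77 with OHT+IACS. The 6 libraries with OHT (68.8 to 73.4 RPKM) all lay below the 6 without (77.5 to 85.7 RPKM). The effector sum was 64.4 ± 2.485, 71.0 ± 3.76, 65.5 ± 2.08 and 68.4 ± 2.86 RPKM in the same order, with overlap between neighbouring conditions. The BH3-only sum was 50.7 ± 0.988, 41.0 ± 1.82, 50.5 ± 4.83 and 43.1 ± 2.97 RPKM. Its highest OHT library, at 42.7 RPKM, lay below all untreated and IACS libraries, the lowest of which was IACS replicate 3 at 44.9 RPKM. The OHT+IACS libraries reached 46.5 RPKM and overlapped that library but no untreated one. Both the antiapoptotic and the BH3-only sum were thus lower with OHT than without drug. Bid and Bad, the larger BH3-only terms, carried the second difference, since Bcl2l11 and Bbc3 together contribute few of these RPKM.

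As shares of the family's RPKM, the antiapoptotic class held 40.4% ± 0.652 in untreated, 38.5% ± 0.876 in OHT, 41.7% ± 0.409 in IACS and 39.1% ± 0.868 in OHT+IACS libraries. Effectors held 33.3% ± 0.960, 39.0% ± 1.35, 32.95% ± 0.916 and 37.4% ± 0.490, and BH3-only genes 26.2% ± 0.344, 22.5% ± 1.21, 25.3% ± 1.27 and 23.5% ± 0.681. The effector share was thus the one that separated cells with OHT (36.9% to 40.25%) from cells without it (32.1% to 34.4%).

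The ratio of antiapoptotic to all proapoptotic transcripts, effectors and BH3-only genes together, was 0.689, 0.690 and 0.658 in the untreated libraries, 0.602, 0.648 and 0.629 with OHT, 0.706, 0.713 and 0.730 with IACS and 0.668, 0.622 and 0.639 with OHT+IACS. OHT libraries lay below and IACS libraries above all untreated ones, and those with OHT+IACS overlapped both OHT and untreated. On the log2 scale the ratio differed from untreated by -0.12 with OHT (SE over libraries 0.038), by 0.08 with IACS (SE 0.027) and by -0.08 with OHT+IACS (SE 0.038). OHT+IACS differed from OHT by 0.04 (SE 0.043) and from IACS by -0.16 (SE 0.033). Set against the effectors alone, the antiapoptotic sum was 1.21 ± 0.0535 in untreated cells, 0.989 ± 0.0498 with OHT, 1.27 ± 0.0262 with IACS and 1.05 ± 0.0338 with OHT+IACS. In OHT replicates 1 and 3, the libraries with the smallest totals, it was 0.961 and 0.959, against 1.047 in OHT replicate 2. Genes of different coverage responded differently to the library total, as given below. The balance was not refitted with that total, and the part of depth in it was not tested. Set against the BH3-only genes the order differed, with 1.54 ± 0.0135 in untreated cells, 1.71 ± 0.109 with OHT, 1.65 ± 0.1005 with IACS and 1.665 ± 0.0804 with OHT+IACS. Each treated condition lay above untreated without overlap, and the treated ones overlapped one another.

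**Figure D3:**
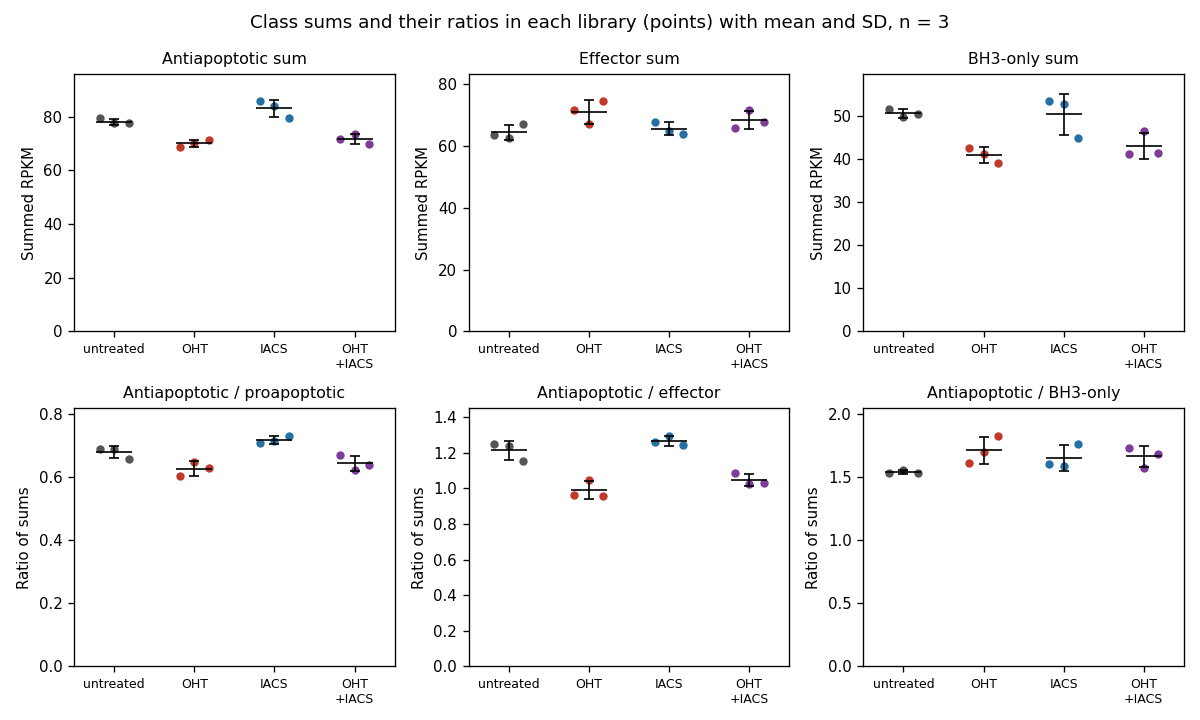
Summed RPKM of the 3 classes (upper row) and ratios of these sums (lower row) in each library (points), with mean and SD of 3 libraries. With OHT the antiapoptotic sum is 70.1 RPKM (78.1 untreated) and the BH3-only sum 41.0 RPKM (50.7 untreated), and the ratio of antiapoptotic to effector transcripts is lower with OHT (0.989 against 1.21) and the ratio to BH3-only transcripts higher (1.71 against 1.54).

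Within the antiapoptotic sum, Bcl2 held 29.6% ± 0.444 in untreated cells, 20.3% ± 1.58 with OHT, 35.2% ± 0.884 with IACS and 27.5% ± 0.463 with OHT+IACS, with no overlap between conditions. Mcl1 held 48.1% ± 0.649, 58.2% ± 2.40, 43.1% ± 0.702 and 50.04% ± 1.07. The ratio of Bcl2 to Bax transcripts was 0.822 ± 0.0312 in untreated and 0.3995 ± 0.0646 in OHT libraries, 0.995 ± 0.0384 with IACS and 0.5725 ± 0.0323 with OHT+IACS. These 4 groups of libraries were separate as well. Leaving Mcl1 out of the balance made each of the 5 differences between conditions larger (log2 change of -0.43 with OHT, 0.21 with IACS and 0.30 for OHT+IACS against OHT).

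Over the 12 libraries, the gene whose values on the log2 scale were most like those of Bcl2 was Myc itself, with a Pearson r of 0.996, followed by Chst11 (0.991) and Fam65b (0.99). In all, 334 tested genes had an r above 0.9 with Bcl2. Myc was at 35.8, 35.9 and 37.2 RPKM in untreated cells, 19.3, 22.5 and 21.2 RPKM with OHT, 46.6, 46.9 and 47.0 RPKM with IACS and 28.4, 30.9 and 31.6 RPKM with OHT+IACS. It thus had the same order of conditions as Bcl2, again without overlap. The study reports that OHT lowered endogenous Myc mRNA and protein while it switched MycER on. The Myc row is thus not a measure of MYC activity here, and Bcl2 was lowest where MycER was switched on without IACS-010759. Whether reads of the MycER transgene were counted in the Myc row was not tested. Bad was most like Chmp1a (0.971), Ilvbl (0.963) and 2310011J03Rik (0.96), and Bbc3 most like Bphl (0.939), Ccdc91 (0.902) and Rabac1 (0.902). Within the family, Bcl2 and Bid (0.918) and Bcl2l1 and Bid (0.903) were the most alike, and Bcl2 and Bax the most opposed (-0.805). These correlations are descriptions: the 12 libraries form 4 groups and share their condition, depth and normalization.

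**Figure D4:**
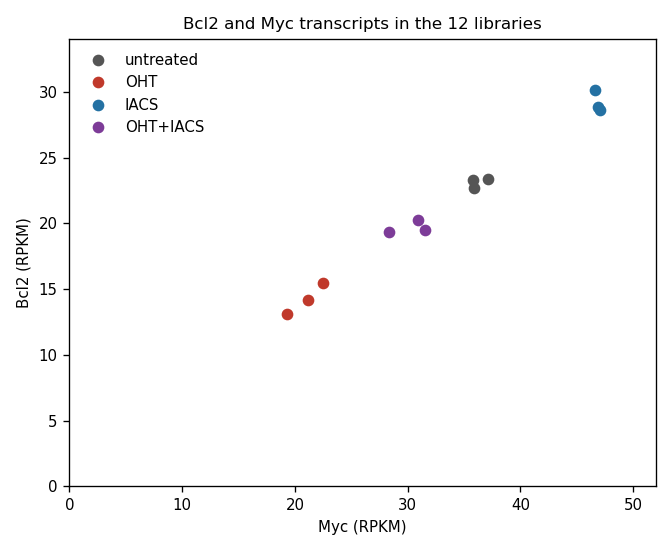
Bcl2 against Myc, both in RPKM, in the 12 libraries, coloured by condition. The Myc transcript is not a measure of MYC activity, since the study reports that OHT lowers endogenous Myc while switching MycER on. The conditions form separate groups in the same order on both axes, from OHT (Myc 19.3 to 22.5, Bcl2 13.1 to 15.5 RPKM) to IACS (Myc 46.6 to 47.0, Bcl2 28.6 to 30.2 RPKM).

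Of 16 further BCL2 family genes, 6 were expressed enough to test. Bcl2a1b, one of a cluster of near-identical antiapoptotic A1 genes between which reads may be split, followed Bcl2 in direction: it fell by 1.13 with OHT (adjusted p = 0.0014), rose by 0.92 with IACS (adjusted p = 0.013) and rose by 0.68 with IACS in primed cells (adjusted p = 0.039), the last call holding in 11 of 21 alternatives. Its levels were low, 1.42 ± 0.353 RPKM untreated, 0.612 ± 0.202 with OHT, 2.81 ± 0.339 with IACS and 1.03 ± 0.258 with OHT+IACS, and rested on 4 to 33 reads per library. Bcl2l12 fell by 0.69 with OHT (adjusted p = 5e-05). Bnip3 and Bnip3l, BH3-like genes of mitophagy that hypoxia is known to induce, fell under IACS-010759 by 0.98 and 0.39 in nonprimed cells and by 1.30 and 0.46 in primed cells, and Bnip3 rose by 0.33 with OHT. Bcl2l2 (Bcl-w) passed in no comparison, its largest difference being 0.23 with IACS-010759 in primed cells (95% interval 0.06 to 0.41, adjusted p = 0.055). Of the BH3-only genes tied to the integrated stress response, Pmaip1 (NOXA) was listed at 0 in all 12 libraries and Hrk had at most 1 read.

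Downstream of the mitochondria, 12 of 13 apoptosome and caspase genes could be tested. OHT raised 2 of them and lowered 4, where 18.2% of all genes rose and 18.2% fell. Among the latter, Casp8, the initiator caspase of death receptors, fell by 0.35, Apaf1, the scaffold of the apoptosome, by 0.34 and Casp6 by 0.33, which held in 14 of 22 alternatives. IACS-010759 raised 1 gene of this list and lowered 2 in nonprimed cells (8.15% of all genes rose and 7.74% fell). In primed cells it also raised 1 and lowered 2 (11.9% rose and 11.8% fell). Dffb, the apoptotic nuclease, fell by 0.35 in nonprimed cells (adjusted p = 0.0044) and by 0.51 in primed cells (adjusted p = 0.00024). OHT+IACS against untreated raised 1, Parp1, and lowered 8, where 18.5% of all genes rose and 20.9% fell. Among 7 genes of IAP proteins and their antagonists, OHT lowered 4 (18.2% of all genes fell) and raised none (18.2% rose): Birc3 by 0.38, Htra2 by 0.36, Birc2 by 0.25 and Xiap by 0.21, which held in 8 of 23 alternatives. Birc3 rose by 0.37 with IACS-010759 in primed cells. The IAP proteins restrain caspases, while Htra2 counters them.

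Of 18 regulators of the family, 17 were tested, and OHT raised 5 (18.2% of all genes rose) and lowered 1, Myc (18.2% fell). Ddit3, which encodes CHOP, was at 7.43 ± 0.174 RPKM in untreated, 8.86 ± 1.18 in OHT, 17.1 ± 0.458 in IACS and 15.0 ± 0.489 RPKM in OHT+IACS libraries. It rose by 1.17 with IACS (adjusted p = 1.2e-07) and by 0.76 with IACS in primed cells (adjusted p = 5.7e-06). Bbc3, a gene CHOP is known to act on, differed by 0.21 (limma, adjusted p = 0.21, not passing) and 0.42 in the same comparisons. In the study, immunoblots of cells without CHOP still showed PUMA protein raised by IACS-010759, after a longer exposure than the 24 h used here. The study found no significant rise of PUMA mRNA in its RNA-seq and proposes that translation may account for the protein. A link between the 2 transcripts was not tested here. Trp53, another activator of Bbc3 and Bax, was 31.9 ± 0.736, 30.6 ± 0.574, 35.0 ± 0.600 and 29.5 ± 0.437 RPKM in untreated, OHT, IACS and OHT+IACS libraries, and was lower in OHT+IACS than in IACS by -0.24 (adjusted p = 0.00055). Bag1, which binds Bcl-2, rose by 0.30 with OHT, and Dynll2, the dynein light chain that tethers Bmf, rose by 0.30 with OHT and fell by 0.29 with IACS. Median changes of the 4 lists with OHT were -0.01 for further BCL2 genes, -0.12 for caspases, -0.21 for IAP genes and 0.08 for regulators, beside 0.01 over all genes.

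**Figure D5:**
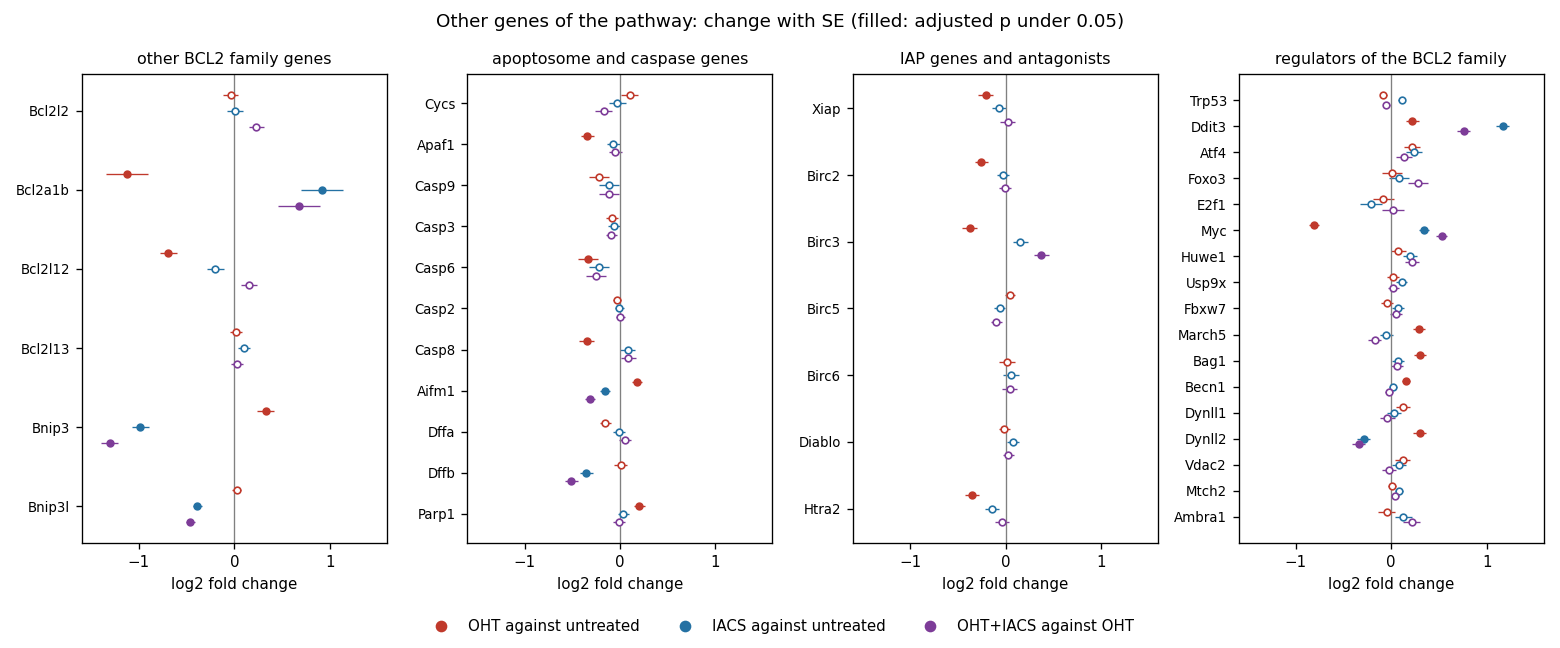
Log2 fold change with SE of genes of 4 lists (panels) in 3 comparisons (colours), filled where the adjusted p was under 0.05. Bcl2a1b and Myc lie left with OHT and right with IACS-010759, Ddit3 lies furthest right with IACS (1.17), and Bnip3 furthest left in primed cells (-1.30).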

How the data were processed

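RNA-seq was made from ribosomal RNA-depleted, stranded total RNA of 12 libraries, 4 conditions in triplicate, grouped by sample title. The authors deposited RPKM per gene and library. The submitters' processing notes name mm9, TopHat2 2.0.8, SAMtools, featureCounts 1.4.5-p1 and DESeq2. The strand setting of the counting is not given in the sources used here, so overlapping antisense genes cannot be told apart. Columns with the authors' own test results (log2 fold changes and adjusted p for 3 comparisons) were not used. No per-library column was left out.

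Because the deposited values were RPKM, limma 3.58.1 (R 4.3.3) took the place of the count test of the study. Libraries were scaled by the median ratio to the geometric mean (factors 0.974 to 1.026). The 9745 genes with 1 RPKM or more in 3 or more libraries were fitted in 1 model on log2(RPKM + 0.1), which understates changes of low genes, with a mean-variance trend, two-sided tests and Benjamini-Hochberg adjustment per comparison, threshold 0.05. Class sums and printed levels are deposited RPKM. Reads, transcript lengths and totals per library were recovered from the RPKM steps, and reads were whole (tolerance 0.001 reads) for 15449 of 15451 genes above 0. In simulated data for OHT against untreated (9745 genes), a log2 change of 0.25 was called in 17 of 67 genes, of 0.5 in 52 of 67 and of 1 in 65 of 66, along with 7 of 9545 unchanged genes. Far fewer genes changed there than the 3546 called with OHT in the data. The adjusted threshold was thus stricter in the simulation, and these counts do not give the power of the real comparison. The labels do not say whether replicates were separate cultures (the study calls them biological), so p-values measure the spread between these libraries.

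Same-numbered replicates did not deviate together (r from -0.172 to 0.104 over 18 pairs), so no block was used. Alternatives were other pseudocounts, filters and scalings, a replicate block, no trend, only the groups compared, library total as a covariate, voom, and each library left out. The members, gene lists and tests were chosen with earlier results of these data known. Genes of the lists were named where they passed a test, by size, at most 4 per list and comparison, with Pmaip1, Hrk, Ddit3, Myc, Trp53 and the markers in any case, and the 3 genes most alike the 3 members with the widest range. Bcl2l2 was named after its values were seen. Some genes of the lists are not reported here. Promoters are RefSeq windows of GRCm38.p6, with no coordinates carried over to mm9. Tables were made with pandas 2.3.3 and numpy 2.4.6 (Python 3.11.15), figures with matplotlib 3.10.9.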

Additional observations from a re-analysis of the deposited data

How the results depend on the processing

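Of the 18 calls on single members, 10 held under every alternative and none changed direction: Bcl2 in 5 comparisons, Bid in 3, Bax with OHT, and Bad for OHT+IACS against untreated. Over these calls, 386 of 414 alternatives kept the call. The number of members changed by OHT went from 5 to 3 with the library total (log2) in the model (covariate; 4 to 6 when libraries were left out). For IACS against untreated it went from 1 to 2 with RPKM of at least 5, without the mean-variance trend, with only the groups compared or with the covariate, and to 3 with quantile normalization or voom (1 to 2 over left-out libraries, 2 without OHT replicate 1 or IACS replicate 2). With the replicate block it was also 2, since Bad passed (-0.37, adjusted p = 0.02), as Bad did for OHT+IACS against IACS (-0.31, adjusted p = 0.029), whereas Bcl2l1 was lost there (adjusted p = 0.058). The block changed no other member's call. OHT+IACS against OHT ranged from 1 to 3 (1 without OHT+IACS replicate 2) and OHT+IACS against IACS from 2 to 4 (2 without IACS replicate 1 or OHT+IACS replicate 3), OHT+IACS against untreated from 4 to 6, and the interaction stayed at 0 under every alternative.

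Over all genes, the count for OHT went from 3546 to 2351 with the covariate, that for IACS from 1548 to 951, 998 and 1026 without untreated replicate 1, untreated replicate 2 and IACS replicate 3, and that for OHT+IACS against OHT from 2310 to 1524 without OHT+IACS replicate 3. The interaction count of 14 was 5 with RPKM as deposited or the covariate, 7 without a filter or with the block, 34 with quantile normalization, 36 with voom and 3 to 130 over left-out libraries (130 without OHT replicate 2).

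Values that changed sign were all small and uncalled: Bcl2l1 with IACS (-0.0204 to 0.0729 over left-out libraries); Mcl1 for OHT+IACS against IACS (-0.0114 with the covariate, -0.0144 to 0.0242 over left-out libraries) and in the interaction (0.0037, quantile); Bax with IACS (-0.0191, covariate) and for OHT+IACS against OHT (0.00464, quantile, -0.129 to 0.00233 over left-out libraries); Bak1 with IACS (-0.0511 to 0.00949), for OHT+IACS against OHT (0.012, quantile) and in the interaction (0.0694, quantile, 0.0237, covariate, -0.0575 to 0.0161 over left-out libraries); Bcl2l11 with OHT (0.0989, quantile, -0.112 to 0.0034 over left-out libraries); Bbc3 with OHT (0.0216, covariate, -0.165 to 0.0546); and Bad in the interaction (-0.00153 to 0.243). The causes were not tested.

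The balance differed by the mean log2 RPKM per class by -0.201 with OHT, 0.136 with IACS, 0.132 for OHT+IACS against OHT and -0.204 against IACS. Without Mcl1 the values were -0.43, 0.209, 0.296, -0.343, -0.134 against untreated and 0.087 for the interaction, which was -0.0393 with Mcl1. Left-out libraries gave -0.141 to -0.0883, 0.0547 to 0.0889, 0.00968 to 0.0627, -0.184 to -0.132, -0.107 to -0.0546 and -0.0676 to -0.0145 in the same order. With the other BCL2 family genes added, no value moved by more than the spread between replicates.

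Depth limits Bcl2l11 and Bbc3, read 84 to 193 times per library, and Bmf. Reads of a gene did not rise in proportion to the library total. The median slope on the log2 scale was 1.39 for genes as thinly covered as Bcl2l11 and Bbc3. It was 1.21 at the coverage of Bcl2, Bcl2l1 and Bad, and 0.912 at that of Mcl1, Bax, Bak1 and Bid. Genes with 0.5 to 1 reads per base had a slope of 0.595 and those above 1 a slope of 0.184, with no member among them. The printed levels, class sums and ratios between genes are deposited RPKM and were not corrected for these slopes. OHT replicates 1 and 3 and IACS replicate 3 had the smallest totals.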

Other observations

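The receptor for interleukin 3, on which FL5.12 cells depend for survival, changed across the same libraries. These genes were chosen after their values were seen. Il3ra, the ligand-binding chain, lay between 5.116 and 9.784 RPKM. It fell by 0.38 on the log2 scale with OHT (adjusted p = 0.0027, limma) and rose by 0.67 under IACS-010759 in primed cells (adjusted p = 0.0001). It was among the 14 genes that passed the interaction, with a difference of 0.68 between the responses of primed and nonprimed cells (95% interval 0.43 to 0.93, adjusted p = 0.045), a call that held in 7 of 22 alternatives. Csf2rb was higher in OHT+IACS than in untreated cells by 0.20 (adjusted p = 0.0081), and Csf2rb2 rose by 0.22 under IACS-010759 in primed cells (adjusted p = 0.0051). The summed level of these 3 genes was 80.3 to 82.4 RPKM in OHT+IACS libraries and 69.5 to 74.75 RPKM over the other conditions.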
